A study of Mus musculus with 11 samples.

Results

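The 10 genes described here make up the extracellular and surface part of the TGF-beta pathway: the ligands Tgfb1, Tgfb2 and Tgfb3, the receptors Tgfbr1, Tgfbr2 and Tgfbr3, and the latent TGF-beta binding proteins Ltbp1, Ltbp2, Ltbp3 and Ltbp4. They were chosen by name and are 10 of the 47643 gene symbols measured. Ltbp4 is listed on 2 rows, of which the second was at 0 RPKM in every library, and the first was used. Fibroblasts of unwounded skin (NS) were set against those of wounds at day 5 (5dw), in wild-type mice (WT) and in littermates that overexpress activin (Act). NS was measured in 3 libraries per genotype and 5dw in 3 libraries of WT. Act 5dw had 2 libraries, numbered 1 and 3, after the authors dropped one at quality control. Each library held RNA pooled from 3 mice.

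All mice were female F1 animals of CD-1 and C57BL/6 parents at 9 to 12 weeks of age, and the WT littermates carried no transgene. The Act transgene is INHBA, which encodes the activin A subunit, under the keratin 14 promoter. It is therefore made in keratinocytes and reaches fibroblasts as a secreted protein. NS was back skin, and 5dw were full-thickness excisional wounds of the back. Live cells with CD140a, the PDGF receptor encoded by Pdgfra, and without CD45, CD11b and F4/80 were sorted, and the sample labels also name CD3 as a negative marker. NS and 5dw libraries were made from different amounts of RNA, so tissue and RNA input cannot be told apart.

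TGF-beta is secreted bound to its own propeptide. A latent TGF-beta binding protein attaches this inactive complex to fibrillin and fibronectin fibers of the matrix, from which integrins and proteases can set the ligand free. The ligand binds the receptor encoded by Tgfbr2, which then phosphorylates the partner encoded by Tgfbr1, and the signal passes to SMAD proteins. The product of Tgfbr3, betaglycan, presents the ligand and is needed most by TGF-beta 2. In skin wounds the pathway is known for myofibroblast formation and collagen synthesis.

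The strongest differences of the 10 genes lay among the latent TGF-beta binding proteins, and the sequences upstream of 3 of them are shown for that reason. RefSeq promoter windows (GRCm38.p6) covered the 250 bases before a start site, and bases in exons of protein-coding genes were left out. Capitals mark the GC box GGGCGG and the SMAD-binding core CAGAC on either strand, with overlapping copies counted. All sequences run 5′ to 3′ on the strand of the gene. The first lies before the upstream start of Ltbp4 on the minus strand, at chr7:27337693-27337862.
Ltbp4 upstream: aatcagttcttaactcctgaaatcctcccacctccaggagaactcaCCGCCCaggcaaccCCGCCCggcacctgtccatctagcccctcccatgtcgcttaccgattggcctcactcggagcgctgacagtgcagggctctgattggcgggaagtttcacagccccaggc
The second lies before the downstream start of Ltbp4, at chr7:27333664-27333913 on the minus strand.
Ltbp4 downstream: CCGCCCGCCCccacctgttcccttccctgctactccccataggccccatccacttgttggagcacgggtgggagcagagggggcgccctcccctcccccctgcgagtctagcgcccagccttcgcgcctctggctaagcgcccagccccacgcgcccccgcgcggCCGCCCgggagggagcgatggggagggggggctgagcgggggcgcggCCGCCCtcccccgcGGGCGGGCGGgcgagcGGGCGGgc
The third lies before the upstream of 2 starts of Ltbp1 on the plus strand, at chr17:75005279-75005528.
Ltbp1: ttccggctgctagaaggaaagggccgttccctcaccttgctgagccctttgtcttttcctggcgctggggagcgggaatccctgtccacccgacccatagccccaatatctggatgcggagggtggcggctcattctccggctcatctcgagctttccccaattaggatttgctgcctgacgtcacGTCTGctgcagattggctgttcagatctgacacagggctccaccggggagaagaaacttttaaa
The last lies before the start of Ltbp2 on the minus strand, at chr12:84876533-84876741.
Ltbp2: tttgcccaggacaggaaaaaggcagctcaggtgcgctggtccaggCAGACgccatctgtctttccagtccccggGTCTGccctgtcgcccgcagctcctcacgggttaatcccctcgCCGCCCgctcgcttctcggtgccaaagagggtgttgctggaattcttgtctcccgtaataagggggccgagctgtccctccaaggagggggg
The full windows of Ltbp4 held 3 GC boxes at the upstream and 7 at the downstream start, and no CAGAC. A further Ltbp4 window, at a start next to the downstream one, held 5 GC boxes and no CAGAC. The Ltbp1 window shown held 1 CAGAC and that of its other start 2, and neither held a GC box. The Ltbp2 window held 2 of each. RefSeq had 12 windows for 8 of the 10 genes, of which 7 windows held a CAGAC, 6 a GC box and none the AP-1 motif TGANTCA. Over 32851 windows of all genes, 42.2% held CAGAC, 32.7% GGGCGG and 6.7% TGANTCA.

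The values are RPKM, reads divided by gene length and by sequencing depth. All 10 genes passed the filter of at least 1 RPKM in at least 2 libraries, which left 11979 genes for testing. About 401 to 78356 reads lay behind each value of the 10 genes, as estimated from the RPKM. The test was limma-trend, run on log2(RPKM + 0.5) values, and differentially expressed genes (DEGs) had an adjusted p under 0.05 after Benjamini-Hochberg correction over all tested genes. The log2 fold change (log2FC) is on this scale throughout, with its standard error (SE).

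Inhba, the mouse gene of the activin A subunit, followed the genotype labels in NS. It was at 3.40 to 6.93 RPKM in WT NS and 36.3 to 91.1 RPKM in Act NS (log2FC 3.30, SE 0.36, limma adjusted p = 0.0128). In 5dw it was at 15.8 to 24.0 RPKM in WT and at 26.2 and 50.2 RPKM in Act, which was no DEG (limma adjusted p = 1). Pdgfra was at 29.6 to 65.3 RPKM in every library, and Ptprc, which encodes CD45, at no more than 0.0498 RPKM. WT NS 1 and Act NS 1 stood apart from the other NS libraries on the second principal component (7.06% of the variance), at 22.4 and 35.8 against -18.0 to -7.42.

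Marker sums of several other cell types differed between the tissues, and some sums rested mostly on 1 gene. The summed RPKM of 14 keratinocyte markers was 1118 to 4276 in NS and 117 to 1007 in 5dw, highest within each group in the library numbered 3, and lowest within NS in the 2 libraries numbered 1. Krt10 led it in NS with a mean of 807 RPKM. The 8 neutrophil markers summed to 0.353 to 1.22 in NS and 3.10 to 21.7 in 5dw, led by S100a8 in NS (mean 0.414 RPKM) and by S100a9 in 5dw (mean 6.31 RPKM), with Ly6g at a mean of 0 in NS and 0.0110 in 5dw. The 8 T cell markers summed to 4.16 to 35.7 in NS and 59.1 to 107 in 5dw and were led by Cd3e (means of 12.5 and 74.1 RPKM), while Cd8a had means of 0.0107 and 0.0160 RPKM. The median of the T cell marker means was 0.0999 RPKM in NS and 0.409 RPKM in 5dw. This sum thus reports Cd3e rather than T cell markers as a class. The 7 Schwann cell markers summed to 7.39 to 14.7 in NS and 0.978 to 1.79 in 5dw. The sums of 10 pan-immune markers (13.8 to 17.2 and 10.3 to 13.7), 9 macrophage markers (9.86 to 17.0 and 11.003 to 15.5), 9 endothelial markers (22.6 to 40.0 and 22.1 to 29.1) and 8 pericyte markers (57.4 to 115 and 68.0 to 114) overlapped or nearly met. The 8 adipocyte markers summed to 67.4 to 127 and 45.6 to 69.5, and the 8 skeletal muscle markers to 4.37 to 7.16 and 2.91 to 3.39. The adipocyte sum was mostly Lpl (means of 86.4 and 50.2 RPKM), with a median of the marker means of 0.212 and 0.0844 RPKM. The 14 fibroblast markers summed to 14291 to 20169 in NS and 25232 to 28673 in 5dw. The sum was led by Dcn in NS (mean 4205 RPKM) and by Col1a1 in 5dw (mean 9103 RPKM). The median of the fibroblast marker means was 751 RPKM in NS and 563 RPKM in 5dw, so the rise of the sum did not hold for the list as a whole. Fewer cells of a type and less RNA per cell cannot be told apart in such libraries, and the part of these cell types in the results was not tested.

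Wounding changed 7 of the 10 genes in WT, 2 upward (Tgfb1 and Ltbp2) and 5 downward (Tgfbr1, Tgfbr2, Tgfbr3, Ltbp1 and Ltbp4). Of all tested genes 58.3% were DEGs in this comparison, 9.45% upward and 48.8% downward, so a count of 7 is close to the background and the sizes carry the description. In Act, 5 of the 10 were DEGs, 1 upward (Ltbp2) and 4 downward (Tgfbr1, Tgfbr3, Ltbp1 and Ltbp4), against 45.6% of all tested genes (9.04% upward and 36.5% downward). These 5 were DEGs in both genotypes, beside 7.4% of all tested genes that rose and 34.1% that fell in both. The median log2FC of the 10 genes was -0.42 in WT and -0.28 in Act, beside -0.40 and -0.31 for all tested genes. Between all 5dw and all NS libraries 5 of the 10 genes did not overlap, the same 5, while 47.3% of all tested genes did not overlap (8.45% higher and 38.9% lower in 5dw).

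These values depend on the scaling between libraries. After median-ratio scaling the median log2FC of all genes moved from -0.40 to -0.0043 in WT and from -0.31 to 0.0019 in Act. The share of DEGs that were lower in 5dw went from 83.8% to 49.7% in WT and from 80.2% to 51.1% in Act. Of the 10 genes, Tgfb1, Ltbp1, Ltbp2 and Ltbp4 remained DEGs in WT and Ltbp1, Ltbp2 and Ltbp4 in Act. With this scaling 22.4% of all tested genes were higher and 22.2% lower in WT, and 19.9% and 20.8% in Act.

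**Figure D1:**
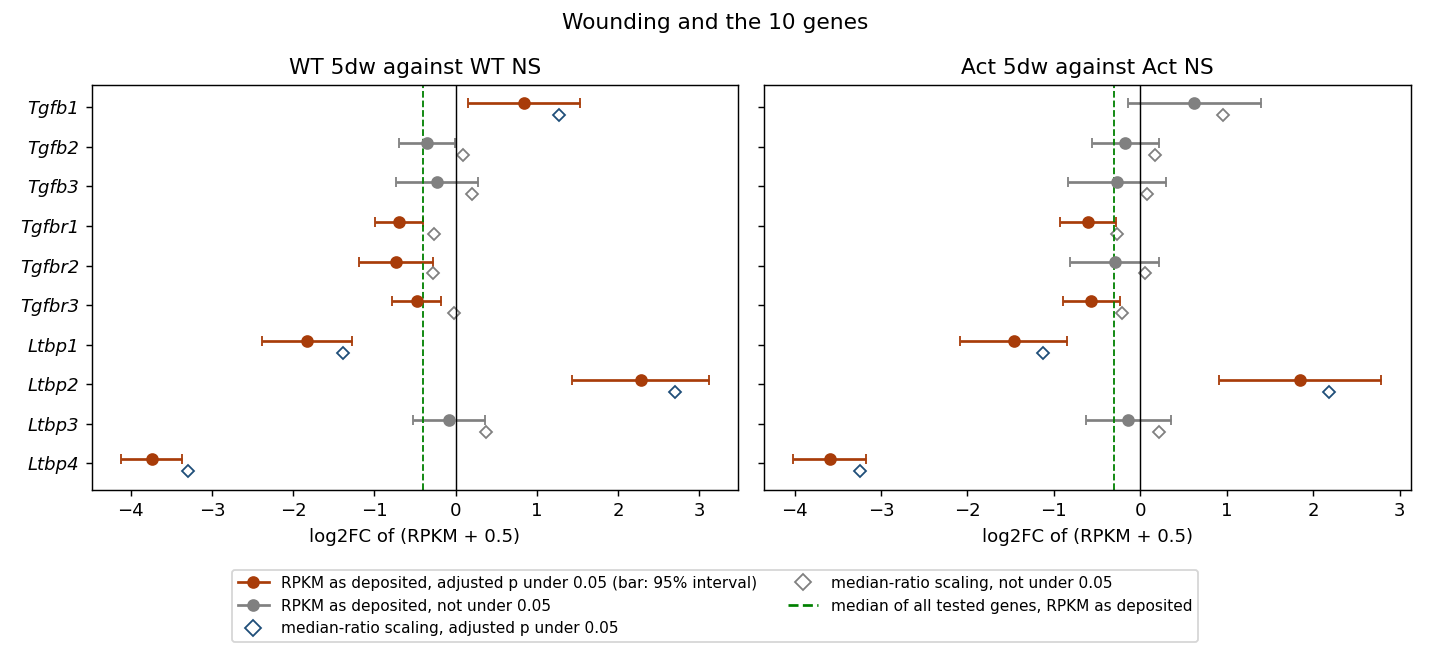
Log2FC of 5dw against NS (x axis, log2 of RPKM + 0.5) for each of the 10 genes in WT (left) and Act (right). Filled points and bars are the estimates and 95% intervals on RPKM as deposited, open diamonds are the estimates after median-ratio scaling, and the dashed line is the median of all tested genes. Ltbp4, Ltbp1 and Ltbp2 lie furthest from that line in both genotypes, while the receptors lie near it.

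The latent TGF-beta binding proteins differed most between the tissues. Ltbp4 fell 13.4-fold in WT and 12.1-fold in Act, Ltbp1 fell 3.55-fold and 2.76-fold, Ltbp2 rose 4.84-fold and 3.60-fold, and Ltbp3 was no DEG.

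Ltbp4, whose product binds latent TGF-beta 1 and takes part in elastic fiber assembly, is on the minus strand of chromosome 7 (27305136 to 27337692, GENCODE M21). It was measured at 184, 118 and 169 RPKM in WT NS and 159, 161 and 182 RPKM in Act NS. In wounds it was at 11.2, 9.57 and 12.5 RPKM in WT and 13.6 and 13.2 RPKM in Act. The lowest NS library was thus far above the highest wound library. The log2FC was -3.74 in WT (SE 0.17, limma adjusted p = 3.47e-07) and -3.59 in Act (SE 0.19, limma adjusted p = 1.02e-06). Ranked by log2FC from the lowest, it was number 46 of 11979 genes in WT and 71 in Act. It was a DEG in both genotypes under each of the 24 other settings tried, with a log2FC of -3.94 to -3.30 in WT and -3.70 to -3.24 in Act.

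Ltbp1 (chromosome 17, 75005568 to 75392512, plus strand) encodes the first described member, which anchors the latent complex to fibronectin and fibrillin. Its values were 29.6, 26.3 and 25.3 RPKM in WT NS and 23.8, 25.6 and 28.2 RPKM in Act NS. The WT wound libraries held 6.42, 12.0 and 4.84 RPKM, and the Act wound libraries 9.87 and 8.24 RPKM. NS libraries lay close together, and the WT wound libraries spread most, with replicate 2 above the others. The log2FC was -1.83 in WT (SE 0.25, limma adjusted p = 0.000184) and -1.47 in Act (SE 0.28, limma adjusted p = 0.00192). Without the library of each group with the highest keratinocyte sum, which leaves 1 Act wound library, it was -1.61 in WT (adjusted p = 0.0077) and -1.28 in Act (adjusted p = 0.0522, limma).

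Ltbp2 (chromosome 12, 84783212 to 84876532, minus strand) encodes a member that lies on microfibrils and is not known to bind latent TGF-beta. It rose from 6.66, 2.63 and 3.96 RPKM in WT NS to 18.7, 19.4 and 29.2 RPKM in WT 5dw. In Act it rose from 5.69, 3.64 and 8.17 RPKM to 13.9 and 32.4 RPKM. Each wound library was above each NS library, and the 2 Act wound libraries differed from each other more than the WT ones did. The log2FC was 2.28 in WT (SE 0.38, limma adjusted p = 0.000621) and 1.85 in Act (SE 0.43, limma adjusted p = 0.00525), rank 88 and 142 from the highest. In Act the log2FC was 2.44 without Act 5dw 1 (limma adjusted p = 0.00509). The call was lost without Act 5dw 3 (1.25, limma adjusted p = 0.075) and without the keratin-richest libraries (1.51, adjusted p = 0.0724). Ltbp2 shares 764 exonic bases with D030025P21Rik, which was at no more than 0.184 RPKM in any library.

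Ltbp3 (chromosome 19, 5740904 to 5758532, plus strand), another carrier of latent TGF-beta, was at 46.5, 25.6 and 35.1 RPKM in WT NS and 37.5, 34.4 and 38.1 RPKM in Act NS. It was at 32.01, 32.7 and 33.6 RPKM in WT 5dw and 27.9 and 39.5 RPKM in Act 5dw, so the tissues overlapped. The log2FC was -0.08 in WT (95% interval -0.52 to 0.36) and -0.14 in Act (-0.63 to 0.35), and its sign turned under median-ratio scaling (0.37 and 0.21), without a call.

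**Figure D2:**
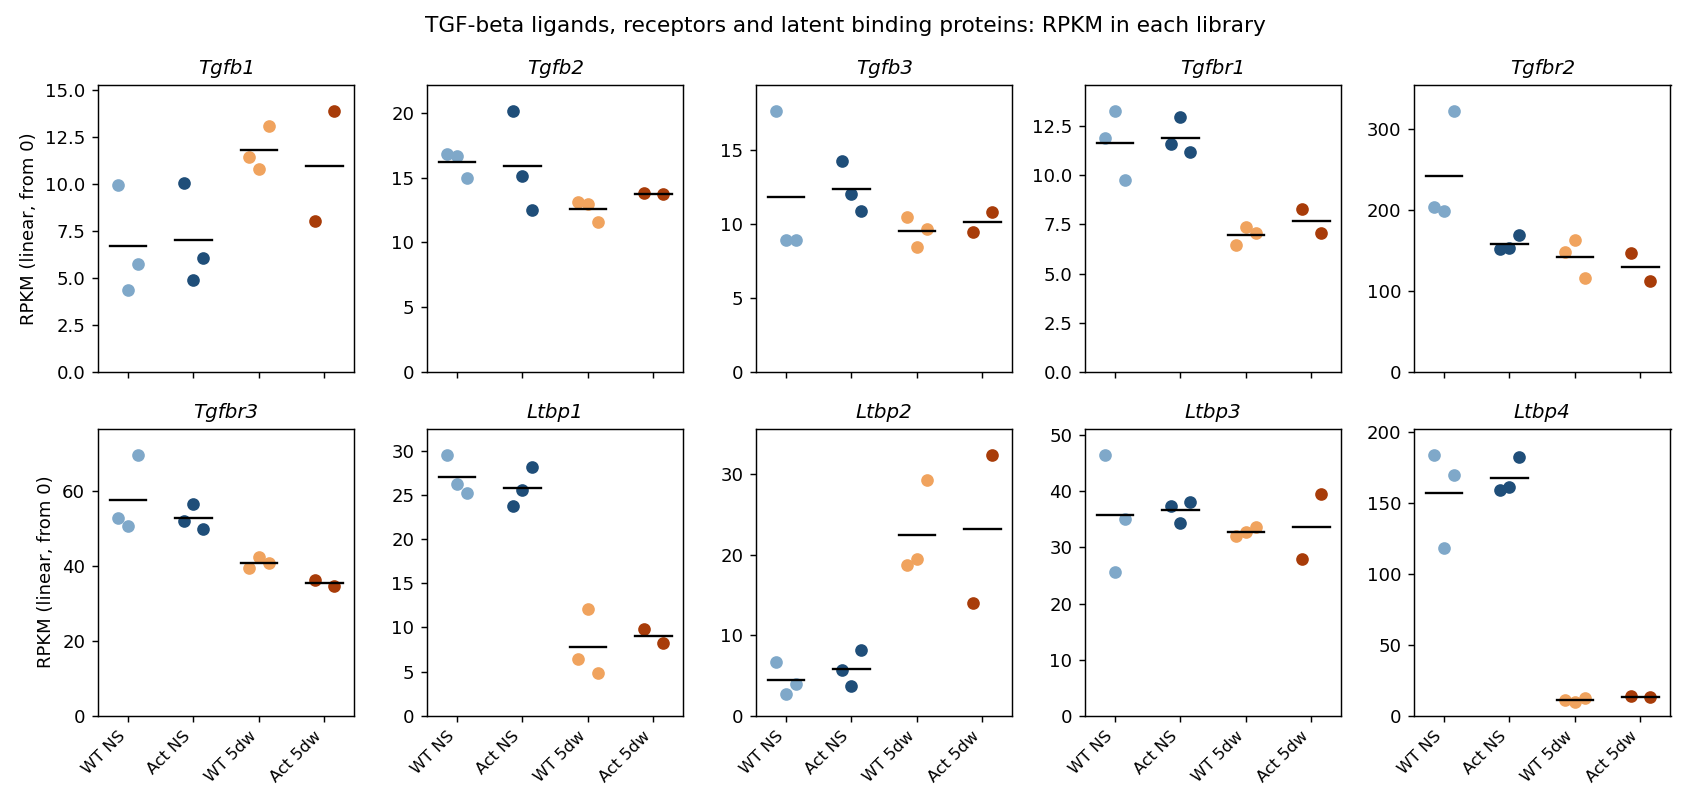
RPKM (y axes, linear from 0) of the 10 genes in each library, by group, with a horizontal line at each group mean. The 5 wound libraries lie below all 6 NS libraries for Ltbp4, Ltbp1, Tgfbr1 and Tgfbr3 and above them for Ltbp2, and for the other 5 genes the range of the 5 wound libraries overlaps that of the 6 NS libraries.

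The makeup of the family changed with these levels. RPKM is per length, so the 4 genes can be summed, and a share within a library does not depend on the scaling between libraries. Ltbp4 made up 68.5% to 72.4% of the summed RPKM of the 4 genes in NS and 12.98% to 20.9% in 5dw. Ltbp3 went from 14.8% to 17.5% in NS to 41.9% to 46.8% in 5dw, and Ltbp2 from 1.52% to 3.18% to 21.3% to 36.4%. The share of Ltbp1 was 10.5% to 15.2% in NS and 6.04% to 16.3% in 5dw. Ltbp4 was thus the leading member in all 6 NS libraries, and Ltbp3 in all 5 wound libraries. The sum itself was 173 to 266 RPKM in NS and 65.3 to 93.3 RPKM in 5dw. The 3 ligands summed to 29.4 to 44.4 RPKM in NS and 31.3 to 38.4 RPKM in 5dw, which gave 5.08 to 8.74 times as much latent binding protein as ligand RNA in NS and 1.95 to 2.43 times in 5dw. The sum includes Ltbp2, which is not known to bind latent TGF-beta and had a larger share in 5dw, so this is no ratio of carrier to ligand. These shares and ratios were not tested.

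**Figure D3:**
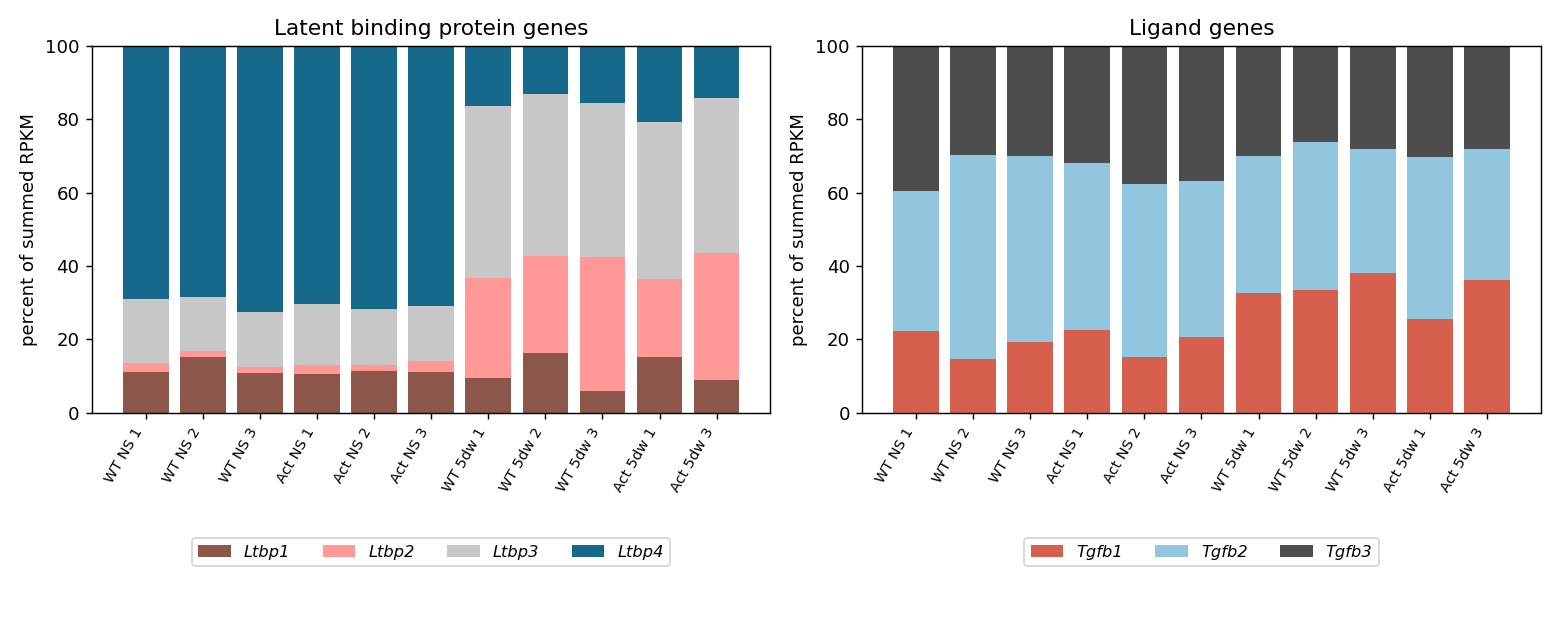
Share of each gene in the summed RPKM (y axis, percent) of the 4 latent binding protein genes (left) and the 3 ligand genes (right), 1 bar per library. Ltbp4 takes 68.5% to 72.4% of the bar in NS and 12.98% to 20.9% in 5dw, and Tgfb1 takes 14.6% to 22.6% and 25.7% to 38.1%.

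Among the ligands, Tgfb1 rose in WT and missed the threshold in Act, and the interaction of wounding and genotype was no DEG call for it. Tgfb2 and Tgfb3 passed the test in neither genotype, though Tgfb2 passed it in WT under 5 of 24 other settings. Tgfb1 (chromosome 7, 25687002 to 25705077, plus strand), the most studied ligand in wounds, was at 9.94, 4.37 and 5.75 RPKM in WT NS and 11.5, 10.8 and 13.1 RPKM in WT 5dw. In Act it was at 10.1, 4.86 and 6.06 RPKM in NS and 8.03 and 13.9 RPKM in 5dw. Both NS libraries numbered 1, which also stood apart on the second principal component and had the lowest keratinocyte sums of NS, were near the wound level. The log2FC was 0.84 in WT (SE 0.31, limma adjusted p = 0.0373) and 0.62 in Act (SE 0.35, limma adjusted p = 0.165). Without these 2 libraries it was 1.15 (adjusted p = 0.00238) and 0.90 (adjusted p = 0.0137, limma). In Act the gene was also a DEG without Act NS 1 alone (0.90, limma adjusted p = 0.0468) and with array weights (0.92, adjusted p = 0.0151). There it was 1.00 without Act 5dw 1 (limma adjusted p = 0.0945), 0.25 without Act 5dw 3 (adjusted p = 0.686) and 0.18 without the keratin-richest libraries (adjusted p = 0.834). The call in WT was lost when WT NS 2, WT NS 3 or any of the WT 5dw libraries was left out (log2FC 0.60 to 0.90, limma adjusted p = 0.0622 to 0.138) and without the keratin-richest libraries (0.70, adjusted p = 0.226), and also with no filter on low values (0.84, adjusted p = 0.0824, limma).

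Tgfb2 (chromosome 1, 186622792 to 186705989, minus strand) was at 16.9, 16.7 and 14.97 RPKM in WT NS and 13.1, 12.97 and 11.6 RPKM in WT 5dw. The Act libraries held 20.1, 15.1 and 12.5 RPKM in NS and 13.8 and 13.7 RPKM in 5dw. The WT groups did not overlap, as was so for 66.4% of all tested genes (11.4% higher and 55% lower in 5dw), and the Act groups did, unlike 64.2% of all tested genes (14.4% higher and 49.8% lower). The log2FC was -0.35 in WT (SE 0.16, limma adjusted p = 0.0733) and -0.18 in Act (SE 0.18, limma adjusted p = 0.434). The settings in which Tgfb2 was a DEG in WT were array weights, a fit of the compared groups alone, and fits without Act NS 1, without Act NS 3 or without both NS libraries numbered 1 (log2FC -0.35 to -0.32, limma adjusted p = 0.0186 to 0.0419). Tgfb3 (chromosome 12, 86056745 to 86079041, minus strand) was at 17.6, 8.87 and 8.90 RPKM in WT NS and 10.5, 8.41 and 9.63 RPKM in WT 5dw. It was at 14.2, 12.0 and 10.8 RPKM in Act NS and 9.47 and 10.8 RPKM in Act 5dw. WT NS 1 was far above the other 2 of its group, and the log2FC of -0.23 in WT (95% interval -0.74 to 0.28) and -0.27 in Act (-0.84 to 0.30) spanned 0. Tgfb2 was the ligand with the highest mean RPKM in each of the 4 groups, though its range met that of Tgfb3 in NS and that of Tgfb1 in 5dw of both genotypes. The share of Tgfb1 in the ligand sum was 14.6% to 22.6% in NS and 25.7% to 38.1% in 5dw.

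The receptors fell in wounds of WT on RPKM as deposited, by less than Ltbp1 and Ltbp4, and Tgfbr1 and Tgfbr3 fell in Act too. None of these calls held after median-ratio scaling. Tgfbr1 (chromosome 4, 47353222 to 47414931, plus strand), the type I receptor, was at 11.9, 13.3 and 9.78 RPKM in WT NS and 11.6, 12.97 and 11.2 RPKM in Act NS. It was at 6.44, 7.36 and 7.04 RPKM in WT 5dw and 8.28 and 7.04 RPKM in Act 5dw. All wound libraries were below all NS libraries. The log2FC was -0.70 in WT (SE 0.13, limma adjusted p = 0.00131) and -0.61 in Act (SE 0.15, limma adjusted p = 0.00716), and after median-ratio scaling -0.26 (adjusted p = 0.167) and -0.27 (adjusted p = 0.216). The call in Act was lost without Act 5dw 3 (-0.50, limma adjusted p = 0.0741) and without the keratin-richest libraries (-0.54, adjusted p = 0.13).

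Tgfbr2 (chromosome 9, 116084293 to 116175360, minus strand), the type II receptor that binds the ligand, had the highest mean level of the 10 genes in 3 of the 4 groups. It was at 203, 199 and 322 RPKM in WT NS and 147.9, 163 and 116 RPKM in WT 5dw, with WT NS 3 apart from the other 2. In Act it was at 152, 152 and 169 RPKM in NS and 147.3 and 112 RPKM in 5dw. Tissues did not overlap within a genotype, but the NS libraries of Act reached down to the wound libraries of WT. The log2FC was -0.74 in WT (SE 0.21, limma adjusted p = 0.0108) and -0.30 in Act (SE 0.23, limma adjusted p = 0.314). After median-ratio scaling it was -0.28 in WT (adjusted p = 0.24) and turned to 0.06 in Act (adjusted p = 0.848, limma), and without the keratin-richest libraries it was -0.37 in WT (adjusted p = 0.186). In Act it was -0.50 without Act 5dw 1 and -0.10 without Act 5dw 3. With quantile normalization the call in WT held (-0.68, limma adjusted p = 0.0442).

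Tgfbr3 (chromosome 5, 107106570 to 107289629, minus strand) was at 52.6, 50.5 and 69.5 RPKM in WT NS and 51.8, 56.5 and 49.7 RPKM in Act NS. It was at 39.4, 42.2 and 40.6 RPKM in WT 5dw and 36.2 and 34.6 RPKM in Act 5dw, again with every wound library below every NS library. The log2FC was -0.48 in WT (SE 0.14, limma adjusted p = 0.0114) and -0.56 in Act (SE 0.15, limma adjusted p = 0.0113), and -0.03 (adjusted p = 0.873) and -0.21 (adjusted p = 0.221) after median-ratio scaling. The call in Act was lost without Act 5dw 3 (-0.53, limma adjusted p = 0.0726). Without the keratin-richest libraries it was lost in both genotypes (-0.33, adjusted p = 0.198 in WT and -0.57, adjusted p = 0.13 in Act, limma). Pdgfra, by whose product the cells were sorted, was lower in 5dw too (log2FC -0.63, SE 0.13, limma adjusted p = 0.0025 in WT). The libraries held 11.7 to 32.9 times as much Tgfbr2 as Tgfbr1 RNA in NS and 15.8 to 23.0 times in 5dw.

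None of the 10 genes was a DEG between the genotypes, in NS or in 5dw. In NS, 0.0167% of all tested genes were DEGs, and at an unadjusted p under 0.05 it was 1 of the 10 genes and 6.88% of all. This gene was Tgfbr2, with 152 to 169 RPKM in Act NS and 199 to 322 RPKM in WT NS (log2FC -0.58, 95% interval -1.03 to -0.12, limma adjusted p = 0.679). Without WT NS 3, the highest library, the log2FC was -0.35 (limma adjusted p = 0.999). Each Act NS library was below each WT NS library, which held in this direction for 7.98% of tested genes. In 5dw, 0.0334% of all tested genes were DEGs, and at an unadjusted p under 0.05 it was 0 of the 10 genes and 3.22% of all. The log2FC of Act 5dw against WT 5dw ran from -0.20 for Tgfbr3 to 0.30 for Ltbp1. Tgfb2 and Ltbp4 were higher and Tgfbr3 lower in every Act 5dw than in every WT 5dw library, beside 7.87% and 15.2% of all tested genes in these directions and 23% in either. The intervals were wide for Ltbp2 (-0.99 to 0.89) and Tgfb1 (-0.91 to 0.62) and narrower for Ltbp4 (-0.15 to 0.69) and Tgfbr1 (-0.20 to 0.46). limma-voom, run on estimated reads, also called 0 of the 10 genes in both comparisons.

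The effect of wounding itself was compared between the genotypes with the interaction term. No gene of all 11979 was a DEG by it (0%), and at an unadjusted p under 0.05 it was 0 of the 10 genes and 3.34% of all. The interaction was 0.44 for Tgfbr2 (95% interval -0.24 to 1.13), -0.43 for Ltbp2 (-1.69 to 0.83) and 0.36 for Ltbp1 (-0.47 to 1.19). That of Tgfbr2 rested in part on WT NS 3, without which the log2FC of wounding was -0.51 in WT beside -0.30 in Act. limma-voom called 0 of the 10 as well. A difference in the wound response of these genes between WT and Act was thus not detected with these libraries. WT and Act wounding were each compared with the NS of their own genotype.

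By level, Tgfbr2 and Ltbp4 led in NS, at means of 241 and 157 RPKM in WT and 158 and 167 RPKM in Act. Their ranges were apart in WT NS and met in Act NS. Tgfbr3 came next (57.6 RPKM in WT and 52.6 RPKM in Act), then Ltbp3 (35.7 and 36.7 RPKM) and Ltbp1 (27.0 and 25.9 RPKM), and the ranges of the last 2 met in WT NS only. Tgfb2, Tgfb3, Tgfbr1, Tgfb1 and Ltbp2 followed in this order in both genotypes, with means of 4.42 to 16.2 RPKM, and neighbors met in all cases but Tgfbr1 and Tgfb1 in Act NS. In 5dw Tgfbr2 (142 RPKM in WT and 129 RPKM in Act) led, followed by Tgfbr3, Ltbp3 and Ltbp2. Ltbp4 had moved down to place 7 in WT and place 6 in Act. Its range met that of Tgfb1 in both genotypes, and in WT also that of Tgfb3.

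The genes around these 10 in the pathway were described by 5 lists. For latent complex and activation, 20 of 22 genes were tested, and 8 rose and 4 fell in WT, 7 rose and 2 fell in Act. Beside these and the following counts stand the shares of all tested genes, of which 9.45% rose and 48.8% fell in WT and 9.04% rose and 36.5% fell in Act. After median-ratio scaling 10 genes of the list were higher and 1 lower in WT, and 11 and 1 in Act. Those that rose in both, and their log2FC in WT, were led by Mmp9 (4.00, SE 0.57), a protease that can release TGF-beta, Fbn2 (1.95, SE 0.29), a fibrillin of growing tissue, Plat (1.42, SE 0.27), the tissue plasminogen activator, and Emilin1 (1.20, SE 0.26), which restrains processing of the ligand precursor. Bmp1, Itgb1 and Mmp2 also rose in both. Pcsk6 (-2.05, SE 0.32), a proprotein convertase, and Itgb6 (-0.83, SE 0.29), an integrin chain of epithelia, fell in both. Itgb6 was at 0.407 to 1.93 RPKM in NS and 0.221 to 0.423 RPKM in 5dw and passed the filter only through NS, and Mmp9 passed it only through 5dw, so the filter favored a difference in these directions. Fibrillin 1 (Fbn1, log2FC in WT -0.03, SE 0.17) and fibronectin (Fn1, -0.21, SE 0.18), to which the latent complex is attached, were DEGs in neither genotype (log2FC in Act 0.21, SE 0.19, and 0.33, SE 0.20).

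Of 8 co-receptors and receptor modulators, 3 fell and none rose in each genotype, near or below the share of all tested genes that fell. They were Eng (log2FC in WT -1.01, SE 0.21), the co-receptor endoglin, Tgfbrap1 (-0.82, SE 0.15), a receptor-associated protein, and Acvrl1 (-0.80, SE 0.16), a type I receptor best known from endothelium. Of 5 matrix proteins that bind TGF-beta, Bgn (biglycan, 1.88, SE 0.20) and Aspn (asporin, 1.04, SE 0.18) rose and Dcn (decorin, -1.23, SE 0.15) fell in both genotypes, while Fmod and Vasn were no DEGs. After median-ratio scaling 2 were higher and 1 lower in WT, and 3 and 1 in Act. Aspn and Bgn were among the genes that the study had picked from these libraries.

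None of 16 signal transducers and inhibitors rose, while 9 fell in WT and 7 in Act, which is near the share of all tested genes that fell. The 4 with the largest drop among those that fell in both were Zfyve9 (log2FC in WT -1.06, SE 0.12), which brings SMADs to the receptor, the corepressors Tgif1 (-0.95, SE 0.18) and Ski (-0.79, SE 0.15), and the inhibitor Smad6 (-0.82, SE 0.19). Of the SMADs that carry the signal, Smad3 fell in WT (-0.48, SE 0.14, limma adjusted p = 0.0118) and was no DEG in Act (-0.34, SE 0.15), and Smad2 (-0.29, SE 0.14 in WT) and Smad4 (-0.04, SE 0.11 in WT) were DEGs in neither genotype. After median-ratio scaling this list had 2 genes higher and 2 lower in WT and 1 higher and 4 lower in Act, and the co-receptor list 2 higher and 1 lower in WT and 2 higher and 2 lower in Act.

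Of the TGF-beta response genes, 19 were tested, and 10 rose and 5 fell in WT and 9 rose and 2 fell in Act. Those that rose in both included Timp1 (log2FC in WT 3.96, SE 0.34), an inhibitor of matrix metalloproteinases, Acta2 (3.38, SE 0.33), smooth muscle actin of myofibroblasts, and Tagln (2.39, SE 0.31), an actin-binding protein. Lox, Col1a1, Postn, Pmepa1 and Ldlrad4 rose in both as well. Cdkn1a (-1.35, SE 0.24), a cell cycle inhibitor, and Sphk1 (-0.50, SE 0.16), a lipid kinase, fell in both. In WT only, Nox4 (-0.75, SE 0.27), Junb (-0.73, SE 0.22) and Tgfbi (-0.62, SE 0.24) fell and Ctgf (0.65, SE 0.25) rose. Some of these genes, such as Postn and Lox, were chosen by the study on these libraries, so the list is not independent evidence of its direction. In WT 11 of the list were higher and 1 lower after median-ratio scaling, and in Act 11 and 2.

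**Figure D4:**
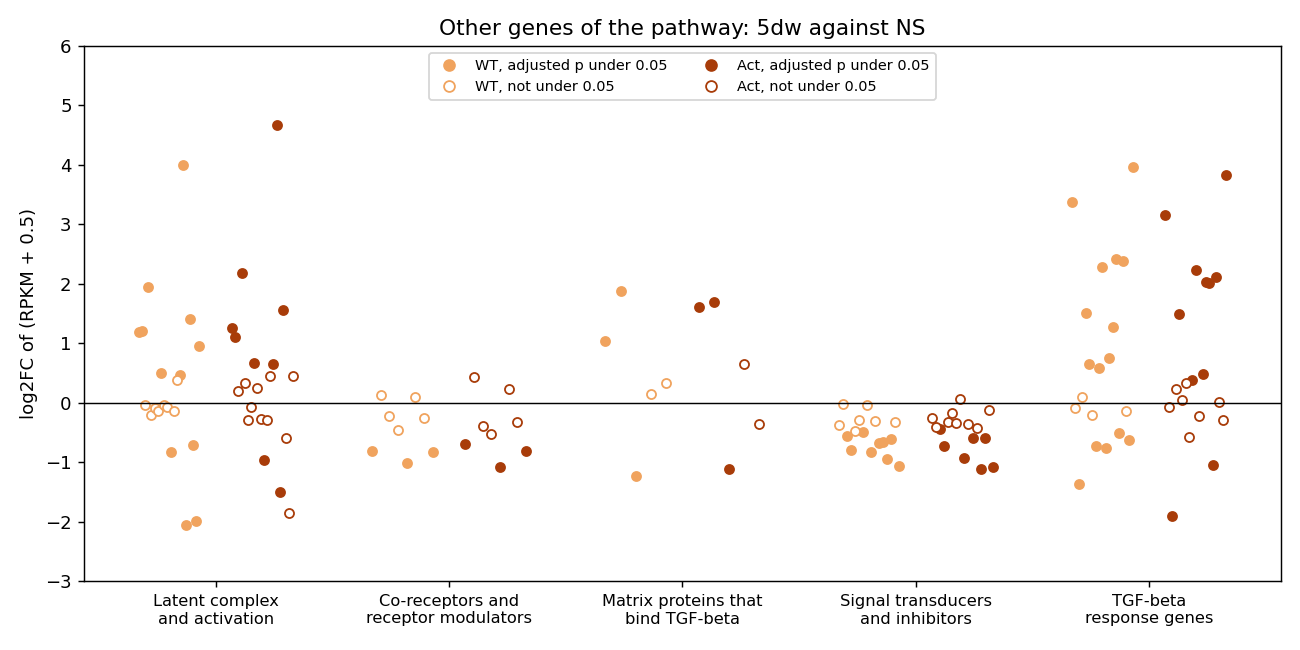
Log2FC of 5dw against NS (y axis, log2 of RPKM + 0.5) for the genes of the 5 pathway lists, with 1 point per gene and genotype. Filled points are DEGs. No signal transducer and no co-receptor is a DEG above 0, while the response genes hold 10 DEGs above 0 in WT and 9 in Act.

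Genes with the most similar pattern were found by Pearson correlation of log2(RPKM + 0.5) over the 11 libraries among 5466 genes with a mean of at least 5 RPKM. The libraries share a tissue within NS and within 5dw, and r is given as a description. Ltbp4 was closest to Hmcn2, Rspo1 and Fnbp1 (each r = 0.994), of which Rspo1 went from 14.3 to 21.1 RPKM in NS to 0.260 to 0.854 RPKM in 5dw. Hmcn2, Rspo1 and Fnbp1 were all below 5 RPKM in 5dw and reached the mean of 5 RPKM only through NS. Ltbp1 was closest to Cpq (r = 0.981), Cadm3 and Igfbp5, and Ltbp2 to Piezo1 (r = 0.976), a mechanically gated channel, Mif and Emilin1. Tgfb1 was closest to Snai1 (r = 0.975), a transcription factor of mesenchymal cells, and then to B4galnt1 and Serpinf1. Snai1 was at 12.7 to 28.8 RPKM in WT NS and 14.4 to 25.0 RPKM in Act NS, and the highest of each was the library numbered 1, as for Tgfb1.

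The receptors and the genes that did not pass the test had other neighbors. Tgfbr1 was closest to Ube2h and Jmjd1c (both r = 0.991) and Irf1, Tgfbr2 to Ankrd46 (r = 0.977), Man1a2 and Gbas, and Tgfbr3 to Ramp2 (r = 0.97), Pdgfra (r = 0.961) and Rnf14. Tgfb2 was closest to Dpysl2 (r = 0.933), mt-Rnr2 and Iah1, Tgfb3 to Cnppd1 (r = 0.947), Dtx3 and F2r, and Ltbp3 to Nfatc4 and Spns1 (both r = 0.924) and Igsf8. None of the 10 genes was among the 3 nearest of another.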

How the data were processed

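RNA of fibroblasts was sequenced in 11 libraries, and the authors aligned single reads to GRCm38 and counted them on genes in CLC Genomics Workbench. The deposited values are RPKM, normalized by the authors to gene length and mapped reads, with no counts. The submitters' processing notes also name edgeR, which takes counts and was not run here. Strand use and treatment of shared reads in the counting are not given in the sources used here. Adding 0.5 before the log2 step shrinks the log2FC of low genes.

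Groups came from the sample labels. limma 3.58.1 in R 4.3.3 fitted 1 mean per group over 11 libraries, with a trend of the spread (residual df 7, median prior df 3.89). Each library pooled 3 mice across sorting sessions, and p-values measure the spread between such pools. Mapped totals, worked out as the number that makes RPKM times GENCODE M21 exonic length whole, were 18649256 to 39702151. Of values under 200 reads, 78.1% to 79.4% came out within 0.03 of a whole read, so reads are approximate.

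Libraries with the same replicate number deviated together in 12 of 15 pairs (r over 0.1). This held for all 3 pairs of WT NS with Act NS (r = 0.334 to 0.554), of WT NS with WT 5dw (r = 0.109 to 0.188) and of Act NS with WT 5dw (r = 0.195 to 0.263), and for 3 of the 6 pairs with Act 5dw (r = -0.124 to 0.189). A group of 2 libraries deviates in mirror image, so r with Act 5dw 1 and with Act 5dw 3 differs in sign only (-0.124 and 0.124 for WT NS 1). These 6 pairs therefore cannot decide on a pairing. Pairs with different numbers ran from r = -0.467 to 0.313, the highest being WT 5dw 2 with Act 5dw 1. The numbers are from the labels, which give no reason for a pairing. The script was tested on simulated data. The members and lists were chosen with earlier results of these data known. Named genes were the 10 genes, Inhba, Pdgfra and Ptprc as checks, up to 4 genes per list and direction among DEGs of both wounding comparisons by size in WT, and the 3 nearest genes by correlation. Genes named beyond this (Bmp1, Itgb1, Mmp2, Fbn1, Fn1, Fmod, Vasn, Smad2, Smad3, Smad4, Lpl, Lox, Col1a1, Postn, Pmepa1, Ldlrad4, Nox4, Junb, Tgfbi, Ctgf, Krt10, S100a8, S100a9, Ly6g, Cd3e, Cd8a, Arhgdib, Tek, Pecam1, Ndufa4l2 and D030025P21Rik) were picked after their values were seen. Some results that this rule or the annotation would name are not reported here. Alternatives were other pseudocounts, filters and scalings, no trend, array weights, fewer libraries and a replicate block, and, chosen after seeing the data, limma-voom on estimated reads and leaving out the keratin-richest library of each group. Promoter sequences are from RefSeq, which had entries for 8 of the 10 genes. Itgam of the macrophage markers and Ccn2 have no row under these symbols, and Ccn2 is another name of Ctgf.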

Additional observations from a re-analysis of the deposited data

How the results depend on the processing

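The number of the 10 genes that were DEGs for 5dw against NS was 7 in WT and 5 in Act. It was 4 and 3 with median-ratio scaling, 5 and 3 with quantile normalization, and 4 and 1 without the keratin-richest libraries, which leaves 1 Act 5dw library assumed to vary like the others. Leaving out single libraries gave 6 to 8 in WT and 2 to 6 in Act, where the 2 came without Act 5dw 3. The calls over all genes moved as well, from 6978 in WT and 5459 in Act to 5339 and 4876, 4768 and 4478, and 3846 and 1680 under the first 3 of these settings, and to 3505 in Act without Act 5dw 3. The cause of these changes was not tested. The fit with a replicate block left the counts at 7 and 5, and at 0 for both genotype comparisons and the interaction, which stayed at 0 under each setting run. Some log2FC that were not called turned sign. With median-ratio scaling they were, in WT, 0.088 for Tgfb2, 0.21 for Tgfb3 and 0.37 for Ltbp3, and, in Act, 0.17 for Tgfb2, 0.072 for Tgfb3, 0.058 for Tgfbr2 and 0.21 for Ltbp3. With quantile normalization they were 0.12 for Tgfb3 and 0.12 for Ltbp3 in WT, and 0.065 for Tgfb2, 0.0016 for Tgfb3 and 0.033 for Ltbp3 in Act. Without both NS libraries numbered 1 they were 0.087 for Tgfb3 and 0.13 for Ltbp3 in WT and 0.0037 for Tgfb2 in Act. With single libraries left out, Tgfb3 ran from -0.39 to 0.087 and Ltbp3 from -0.30 to 0.13 in WT, and Tgfb2 from -0.33 to 0.0037 and Ltbp3 from -0.39 to 0.11 in Act.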
